A study of Mus musculus with 8 samples.

Results

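The genes described here encode the subunits of mitochondrial oxidative phosphorylation in mouse liver: NADH dehydrogenase (complex I), succinate dehydrogenase (complex II), the cytochrome bc1 complex (complex III), cytochrome c oxidase (complex IV) and ATP synthase (complex V). They were chosen by name alone, as every non-control probe whose gene name starts with Ndufa, Ndufb, Ndufc, Ndufs, Ndufv, Sdha to Sdhd, Uqcr, Cox4 to Cox8 or Atp5. The rule found 133 probes of 91 genes, among 41174 probes of 27358 gene names on the array, and the probe with the highest mean signal stood for each gene. Of the 91 genes, 78 were counted as core subunits: 36 of complex I, 4 of complex II, 8 of complex III, 15 of complex IV (with Ndufa4, now counted there) and 15 of complex V. The muscle forms Cox6a2, Cox7a1 and Cox8b were kept apart, and so were 10 assembly factors and other genes that share only the start of the name. A gene was tested where its probe read well above background on at least 2 of the 8 arrays, which held for 75 of the 78 core subunits and for 17436 genes in all. Each of the 75 read above background on all 8 arrays. The 3 that were not tested are tissue-restricted complex IV forms: Cox7b2 and Cox8c read above background on no array, and Cox4i2 only in 1-month knockout replicate 1, at a log2 signal of 7.10.

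Total liver RNA was measured on 8 one-colour Agilent arrays from C57BL/6 mice, all labelled male, at 3 postnatal ages. The wild type had 1 array per age: 5-day and 1-month RNA was pooled from 2 mice, and 2-week RNA came from 1 mouse. The hepatocyte Arid1a knockout, in which hepatocytes lose a DNA-binding component of SWI/SNF chromatin remodellers, had 2 arrays of 5-day, 1 of 2-week and 2 of 1-month liver, and every one of these came from a single mouse. The Cre line and the deleted exons are not given in the sources used here. With 1 wild-type array per age, p-values rest on the spread between the paired knockout arrays and across the fitted arrays, and pooled samples hide the spread between mice.

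Oxidative phosphorylation passes electrons from NADH (through complex I) or succinate (through complex II) to ubiquinone, then through complex III and cytochrome c to oxygen at complex IV, and the proton gradient built on the way drives ATP synthesis by complex V. Liver cells rely on it for gluconeogenesis and urea synthesis, and the organ takes over these tasks around and after birth. Most subunits are encoded in the nucleus, as are all genes described here, and several subunits of complex IV exist in liver and muscle forms.

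Depth was similar across arrays, with 55.7% to 62.4% of probes well above background and 0 saturated spots. Hepatocyte markers were high on every array (Alb 17.73 to 18.48, log2 signal). The probe for the targeted gene, Arid1a, read 9.67 in the 5-day wild-type pool against 9.48 and 9.58 in the knockouts, 9.35 against 8.77 at 2 weeks, and 9.35 against 8.83 and 8.78 at 1 month, so the knockout and wild type stood close at 5 days. Its difference over the 3 ages did not pass the test (limma, adjusted p = 0.224). Knockout replicate 1 at 5 days stood apart: 24 of 26 skeletal muscle markers read above background there, against 10 to 15 on the other arrays, and it carried Xist (13.43) without the Y-linked Ddx3y (1.93, not above background) although labelled male. The 5-day wild-type pool carried both Xist (12.13) and Ddx3y (9.42). In the 2-week knockout 15 of 16 pancreatic acinar markers read above background, against 9 to 13 on the other arrays. The median over the 13 tested was 9.97 there and 5.28 to 6.14 elsewhere. Cpa1 read 10.81 there against 3.32 to 4.58 elsewhere, while Pnliprp1 read 10.68 there and 12.72 to 13.27 at 5 days. For the core subunits as a set, Cox7c and the muscle forms, some results are also given without 1 or both of these arrays. Most other results are given only with them.

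From 5 days to 2 weeks and 1 month the oxidative phosphorylation genes rose almost as a block. At 1 month, 72 of 75 core subunits were higher than at 5 days and 1, the testis form Cox6b2, was lower (limma, Benjamini-Hochberg adjusted p under 0.05), while 30.3% of all genes tested were higher and 26.7% lower. The median difference was 0.92 on the log2 scale, 1.90-fold, against 0.09 over all genes tested. At 2 weeks, 70 of 75 were already higher and 1 lower, with a median of 0.84, against backgrounds of 21.1% higher and 21.5% lower and a median of 0.01. In bulk RNA, more transcript per hepatocyte and more hepatocytes per liver cannot be told apart. The comparisons of 2 weeks and of 1 month with 5 days share their 5-day arrays.

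Single arrays show the same separation. In 72 of the 75 core subunits all 3 arrays of 5 days lay below all 5 later arrays, which was so for 23.5% of all genes tested. The median level of the core subunits was 14.36 in the 5-day wild-type pool and 14.15 and 14.26 in the 5-day knockouts. It was 15.07 and 15.04 in the wild type and knockout at 2 weeks, 14.86 in the 1-month wild-type pool, and 15.20 and 15.19 in the 1-month knockouts. The 3 arrays of 5 days were the lowest and did not overlap with the rest.

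**Figure D1:**
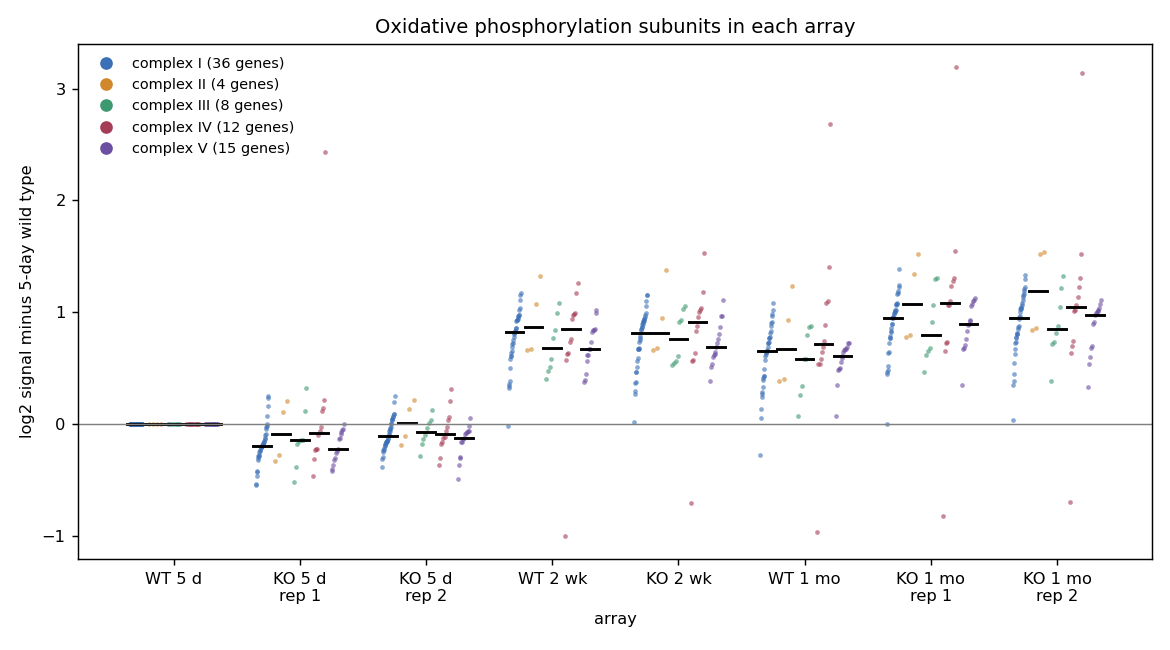
Each point is 1 core subunit gene on 1 array, as its log2 signal minus that of the 5-day wild-type pool, coloured by complex, with a black bar at the median of each complex; WT is wild type and KO is knockout. The 5-day arrays sit near 0, except for Cox7c in 5-day knockout replicate 1 (10.97, against 8.54 in the pool). Nearly all genes of the later arrays lie above 0, with Cox6b2 the lowest point on each later array and Cox7c the highest at 1 month.

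The size of this rise differed between scalings, and the cause was not tested. Scaled to the 75th percentile of each array, genes of like signal were also mostly higher. Among the 457 other genes whose probes had a mean log2 signal of 14 to 16 the median difference at 1 month was 0.53, with 56.7% higher, and the 43 core subunits in that range had a median of 0.94. Quantile normalization, which forces one distribution on all arrays, set the median of those 457 genes to -0.09 and left the 43 core subunits at 0.36.

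Over all 75 core subunits, quantile normalization gave a median of 0.36 (1.29-fold) at 1 month and 0.44 at 2 weeks, with 45 higher at each age and 2 lower at 1 month, Cox6b2 and Ndufa7. In that scaling 28.2% of all genes were higher and 29.7% lower at 1 month, and 19.1% and 22.3% at 2 weeks. The authors' deposited value table, which is quantile-normalized, gave the same counts. Normexp background correction as planned called 0 core subunits at both ages (limma, 0 higher and 1 lower at an unadjusted p under 0.05 at each), and few genes in all: 0.769% higher and 1.55% lower at 1 month, and 0.0803% and 0.327% at 2 weeks. The core medians were then 0.07 and -0.10, below those of all genes tested (0.25 and 0.18). It draws on the local background of each spot, which the Feature Extraction software flagged as an outlier at 398 to 2015 of 45018 spots per array. With those replaced by the array's median background, a setting chosen after seeing the data, the 1-month median was 0.83. Why planned normexp differed from the other settings was not tested.

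**Figure D2:**
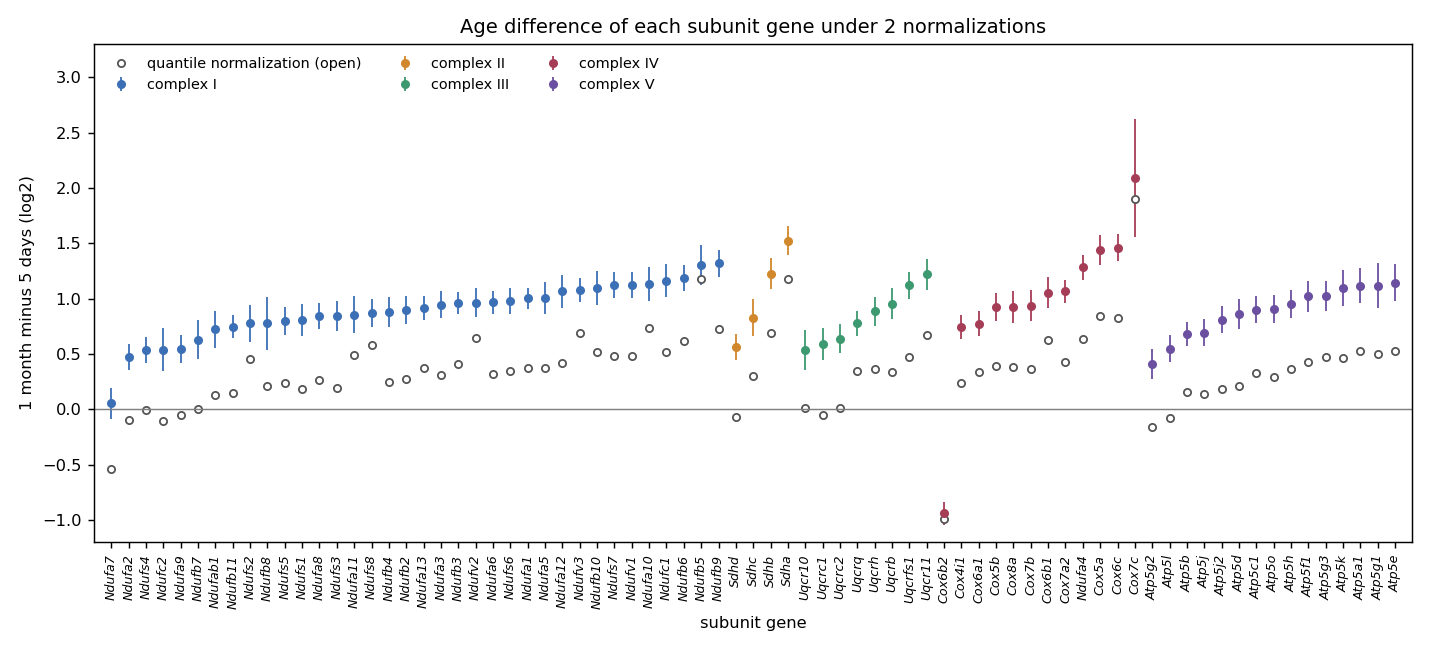
Filled points are the differences of the 75 core subunit genes between 1 month and 5 days (log2, 75th-percentile scaling) with bars of 1 standard error, coloured by complex, and open points are the same genes after quantile normalization. The filled points centre on 0.92 and the open ones on 0.36, and Cox6b2 is below 0 in both.

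Between 2 weeks and 1 month 0 core subunits passed the test (limma, 5 higher and 0 lower at an unadjusted p under 0.05, where 15.4% of all genes were higher and 14.4% lower). In that comparison 4.3% of all genes tested passed as higher and 5.79% as lower. The smallest adjusted p among core subunits was 0.0690, for Cox6c, and the median was 0.03 against 0.02 over all genes. That median fell to -0.09 with quantile normalization.

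Slide was partly tied to age: the first slide held the 5-day wild-type pool, 5-day knockout replicate 2 and both 2-week arrays, and the second held 5-day knockout replicate 1 and the 1-month arrays. Within the first slide the core subunits were higher at 2 weeks by a median of 0.78 in the wild type and 0.88 in the knockout. Within the second slide they were higher at 1 month by 1.08 in the knockouts. With 5-day knockout replicate 1 left out, only 1-month arrays remain on the second slide. In such fits 1 month and slide cannot be told apart. Without 5-day knockout replicate 1 and the 2-week knockout together, 64 core subunits were higher at 1 month but 26 at 2 weeks, a comparison that then had 1 array at 2 weeks.

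RefSeq promoter windows (build GRCm38.p6, 250 bases before to 50 after a gene's start) were found for 65 of the 78 core genes. They were searched on both strands for letters of factors known to bind respiratory gene promoters. The NRF1 palindrome, GCGCA followed by its reverse complement TGCGC, lay in the windows of 5 core genes (7.69%), against 1.07% of 27025 genes with a window. The letters CCGGAAG, bound by ETS factors such as GABP, lay in 24.6% against 9.93%, and AAGATGG, bound by YY1, in 16.9% against 7.28%. The estrogen-related receptor letters TCAAGGTCA lay in 3.08% (2 genes) against 0.466%. By contrast GGGCGG, bound by Sp1, lay in 41.5% against 38.2%, and CCAAT in 43.1% against 41.1%. TATAAA was less frequent, at 9.23% against 15.7%. A match is a description of letters in these windows, not a binding site, and none of these strings contains another.

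The 5 core genes with the NRF1 palindrome are shown because they span 4 complexes. Each line gives 30 bases, 5′ to 3′ on the gene's strand, with the palindrome in capitals.
Ndufa11: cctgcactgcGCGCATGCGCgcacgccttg
Uqcrc1: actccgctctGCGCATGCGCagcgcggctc
Cox6a1: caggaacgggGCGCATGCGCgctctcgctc
Atp5g2: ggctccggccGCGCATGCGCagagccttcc
Atp5k: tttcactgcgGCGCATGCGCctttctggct
In GRCm38.p6 these stretches are chr17:56717692-56717721 (plus strand) for Ndufa11, chr9:108936668-108936697 (plus) for Uqcrc1, chr5:115349101-115349130 (minus) for Cox6a1, chr15:102671070-102671099 (minus) for Atp5g2 and chr5:108434430-108434459 (minus) for Atp5k. The palindrome lay before the start in Ndufa11, Cox6a1, Atp5g2 and Atp5k and after it in Uqcrc1. All 5 genes were higher at 1 month than at 5 days, by 0.85, 0.59, 0.77, 0.41 and 1.10 in the order of the lines, on both sides of the core median of 0.92.

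The 2 core genes with the estrogen-related receptor letters, here on the opposite strand as TGACCTTGA in capitals, were Atp5g3 and Sdhd.
Atp5g3: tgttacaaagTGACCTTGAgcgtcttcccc
Sdhd: ggttgtagagTGACCTTGAgccct
They lie at chr2:73911359-73911388 and chr9:50603800-50603823 in GRCm38.p6, both on the minus strand. Atp5g3 was higher at 1 month by 1.03 and Sdhd by 0.56. The receptor gene Esrra itself, a partner of PGC-1 coactivators, read 10.12 to 10.16 at 5 days, 12.10 and 12.04 at 2 weeks and 10.92 to 11.35 at 1 month, and its rise from 5 days to 1 month passed the test (1.00 ± 0.13 SE, adjusted p = 0.00111). Between the same ages Nrf1 fell (-0.82, limma, adjusted p = 0.00478) and Tfam, which packages mitochondrial DNA, rose (0.66, adjusted p = 0.00628). Tfam read 14.76 to 14.97 at 5 days, was lower at 2 weeks (14.47 and 14.62), and read 15.34 to 15.64 at 1 month.

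Complex I takes electrons from NADH. All of its 36 subunits had a difference above 0 at 1 month, 34 passed as higher, and the median was 0.91. At 2 weeks 33 passed. The 3 with the smallest p at 1 month were Ndufb9, an accessory subunit of the membrane arm, Ndufv3, an accessory subunit of the NADH-oxidizing module, and Ndufa1, an accessory subunit needed for assembly. Values are given in the order wild type, knockout at each age. Ndufb9 read 14.98 in the 5-day wild-type pool, 14.84 and 14.83 in the 5-day knockouts, 15.80 and 16.04 in the wild type and knockout at 2 weeks, 16.07 in the 1-month wild-type pool and 16.23 and 16.32 in the 1-month knockouts. Its 3 arrays of 5 days were all below the rest, and the difference at 1 month was 1.32 ± 0.12 (SE; limma, adjusted p = 0.000375). Ndufa1 read 14.52, 14.47 and 14.48 at 5 days, 15.45 and 15.41 at 2 weeks and 15.42, 15.54 and 15.52 at 1 month. The 5-day arrays lay below all later arrays, while 2 weeks and 1 month overlapped, and Ndufa1 was higher at 1 month by 1.00 ± 0.10 (adjusted p = 0.00045).

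Ndufv3 read 11.53, 11.41 and 11.36 at 5 days, 12.34 and 12.001 at 2 weeks and 12.56, 12.48 and 12.50 at 1 month, and all 3 arrays of 5 days were the lowest (1.08 ± 0.11 at 1 month, adjusted p = 0.000447).

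Among the catalytic core of complex I, Ndufs7, which carries the last iron-sulfur cluster before ubiquinone, rose most firmly by 2 weeks. It read 13.82, 13.62 and 13.73 at 5 days, 14.99 and 14.97 at 2 weeks and 14.74, 14.83 and 14.98 at 1 month. The difference at 2 weeks was 1.26 ± 0.13 (adjusted p = 0.00124), with no overlap between 5 days and the later ages. Ndufb6, a membrane-arm subunit, read 12.86, 12.93 and 12.90 at 5 days, 14.01 and 14.01 at 2 weeks and 13.84, 14.24 and 14.16 at 1 month and was higher at 2 weeks by 1.14 ± 0.13 (adjusted p = 0.00163).

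The exceptions within complex I were Ndufa7 and Ndufc2 at 1 month and Ndufa7, Ndufa2 and Ndufb8 at 2 weeks. Ndufa7, an accessory subunit, read 15.25, 14.97 and 15.12 at 5 days and 14.97, 15.25 and 15.28 at 1 month, so the ages overlapped (difference 0.05 ± 0.14, adjusted p = 0.764). With quantile normalization its difference was -0.54 and passed the test (adjusted p = 0.00824). Ndufc2 read 14.39, 13.85 and 14.16 at 5 days, 15.15 and 14.76 at 2 weeks and 14.44, 14.84 and 14.74 at 1 month. Its values peaked in the 2-week wild type, and the difference at 1 month was 0.54 ± 0.20 (adjusted p = 0.0538).

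Complex II oxidizes succinate and links the respiratory chain to the citric acid cycle. All 4 of its subunits rose by 2 weeks and 1 month, with medians of 0.99 and 1.03. Sdha, the flavoprotein that oxidizes succinate, read 11.28, 10.998 and 11.09 at 5 days, 12.35 and 12.22 at 2 weeks and 12.51, 12.62 and 12.80 at 1 month. The ages did not overlap, and the difference at 1 month was 1.52 ± 0.13 (2.87-fold, adjusted p = 0.000315). Sdhb, the iron-sulfur subunit, read 12.53, 12.64 and 12.74 at 5 days, 13.85 and 13.91 at 2 weeks and 13.46, 14.05 and 14.07 at 1 month, a difference at 1 month of 1.22 ± 0.14 (adjusted p = 0.000779). Sdhc, a membrane anchor, read 12.96, 12.63 and 12.85 at 5 days, 13.63 and 13.63 at 2 weeks and 13.35, 13.76 and 13.83 at 1 month, a difference of 0.83 ± 0.17 (adjusted p = 0.00631). In both genes the 5-day arrays lay below all later arrays. With quantile normalization the call on Sdhc ended (0.30, adjusted p = 0.102), while Sdha stayed past the threshold at 1.17.

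Different probes of one gene did not always move alike. Of 23 core genes with several probes above background on all arrays, 4 had probes on both sides of 0 for 1 month against 5 days and 8 had probes differing by over 1.5-fold. The other Sdha probes gave 0.53 and -0.05. Ndufv3 was higher by 1.08 ± 0.11 with the probe used and lower with its other probes (-0.66 and -0.87), so that the mean over probes was -0.15. Atp5b, the catalytic beta subunit of ATP synthase, and Atp5j2 each had a probe below 0 (-0.23 and -0.42) beside the probe used (0.68 and 0.81). What each probe detects was not tested.

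Complex III passes electrons from ubiquinol to cytochrome c. All 8 of its subunits were higher at both later ages, with medians of 0.85 at 2 weeks and 0.83 at 1 month. Uqcrfs1, the Rieske iron-sulfur protein, read 13.47, 13.59 and 13.50 at 5 days, 14.46 and 14.52 at 2 weeks and 14.35, 14.78 and 14.80 at 1 month, with no overlap between 5 days and later. Its difference at 1 month was 1.12 ± 0.12 (adjusted p = 0.000661). Uqcr11, a small membrane subunit, read 15.71, 15.32 and 15.42 at 5 days, 16.55 and 16.64 at 2 weeks and 16.58, 16.77 and 16.75 at 1 month (1.22 ± 0.14, adjusted p = 0.0008). Uqcrh, the hinge protein near cytochrome c1, read 15.98, 15.83 and 15.85 at 5 days, 16.75 and 16.89 at 2 weeks and 16.56, 16.89 and 16.86 at 1 month (0.88 ± 0.13, adjusted p = 0.00177). Neither gene overlapped between 5 days and later. The smallest difference was that of Uqcr10 at 0.54 (adjusted p = 0.0426), which read 16.32 in the 5-day wild-type pool and 16.38 in the 1-month wild-type pool.

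Complex IV reduces oxygen to water. Of its 12 tested subunits 11 were higher and 1 lower at 1 month, and 10 higher and 1 lower at 2 weeks. Cox6c, a small regulatory subunit, read 13.93, 14.15 and 13.81 at 5 days, 14.87 and 14.93 at 2 weeks and 15.34, 15.48 and 15.45 at 1 month. Its 3 ages formed 3 separate steps, and the difference of 1.46 ± 0.12 between 1 month and 5 days had the smallest adjusted p among core subunits (0.000285). Cox5a, a nuclear-encoded subunit on the matrix side, read 15.08, 14.77 and 14.71 at 5 days, 16.34 and 16.26 at 2 weeks and 16.18, 16.39 and 16.30 at 1 month and was higher by 1.43 ± 0.15 at 2 weeks (adjusted p = 0.00128) and by 1.44 ± 0.14 at 1 month (adjusted p = 0.000389). Ndufa4, once assigned to complex I, read 13.96, 13.73 and 13.80 at 5 days, 14.96 and 14.98 at 2 weeks and 15.05, 15.19 and 15.10 at 1 month and was higher by 1.28 ± 0.11 at 1 month (adjusted p = 0.000324).

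Cox6b2, a form known from testis, was the core subunit that fell. It read 9.20, 9.32 and 9.41 at 5 days, 8.20 and 8.49 at 2 weeks and 8.23, 8.38 and 8.51 at 1 month, so that the 5-day arrays were the highest with no overlap. The differences were -0.93 ± 0.12 at 2 weeks (adjusted p = 0.00192) and -0.94 ± 0.10 at 1 month (adjusted p = 0.000637), and both stayed past the test with quantile normalization. Its ubiquitous counterpart Cox6b1 moved the other way, from 11.72, 11.86 and 11.76 at 5 days to 12.47, 13.00 and 13.03 at 1 month. The 250 bases before the start of Cox6b2, chr7:4753095-4753344 on the minus strand of GRCm38.p6, are shown because its direction was opposite to that of the other subunits. CCAAT, read here on the opposite strand as ATTGG, is in capitals, and the NRF1, YY1, CCGGAAG and estrogen-related receptor letters had no match in its window.
Cox6b2: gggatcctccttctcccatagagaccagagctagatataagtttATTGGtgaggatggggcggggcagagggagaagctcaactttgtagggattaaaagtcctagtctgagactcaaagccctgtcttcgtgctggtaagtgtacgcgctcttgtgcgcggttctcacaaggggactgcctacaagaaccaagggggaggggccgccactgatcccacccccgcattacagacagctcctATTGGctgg

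Cox7c, a small nuclear-encoded subunit, was high on 1 array of 5 days. It read 8.54, 8.86, 9.71 and 10.07 on the first slide (5-day wild-type pool, 5-day knockout replicate 2, 2-week wild type and 2-week knockout) and 10.97, 11.22, 11.73 and 11.68 on the second (5-day knockout replicate 1 and the 1-month arrays). Every array of the second slide was above every array of the first, but the only 5-day array there is the one with muscle markers and Xist, so slide and what sets that array apart cannot be told apart. Within the first slide Cox7c was higher at 2 weeks than at 5 days by 1.17 in the wild type and 1.22 in the knockout, and within the second it was higher at 1 month by 0.73.

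Over all arrays the difference of Cox7c at 1 month was 2.09 ± 0.53 (limma, adjusted p = 0.0163). It was 0.71 ± 0.15 with slide as a block (adjusted p = 0.0209) and 2.78 without 5-day knockout replicate 1 (adjusted p = 0.000632). Without that array 1 month and slide cannot be told apart. The call over all arrays ended without the 5-day wild-type pool (1.78, adjusted p = 0.0686), without the 1-month wild-type pool (1.94, adjusted p = 0.0624) and with planned normexp (1.24, adjusted p = 0.282). At 2 weeks the difference was 0.57 (adjusted p = 0.490), and it passed the test at 1.19 with slide as a block (adjusted p = 0.0044). Leaving out 5-day knockout replicate 1 gave the same estimate and p. That array is the only one of these ages on the second slide, so the 2 settings are 1 check.

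**Figure D3:**
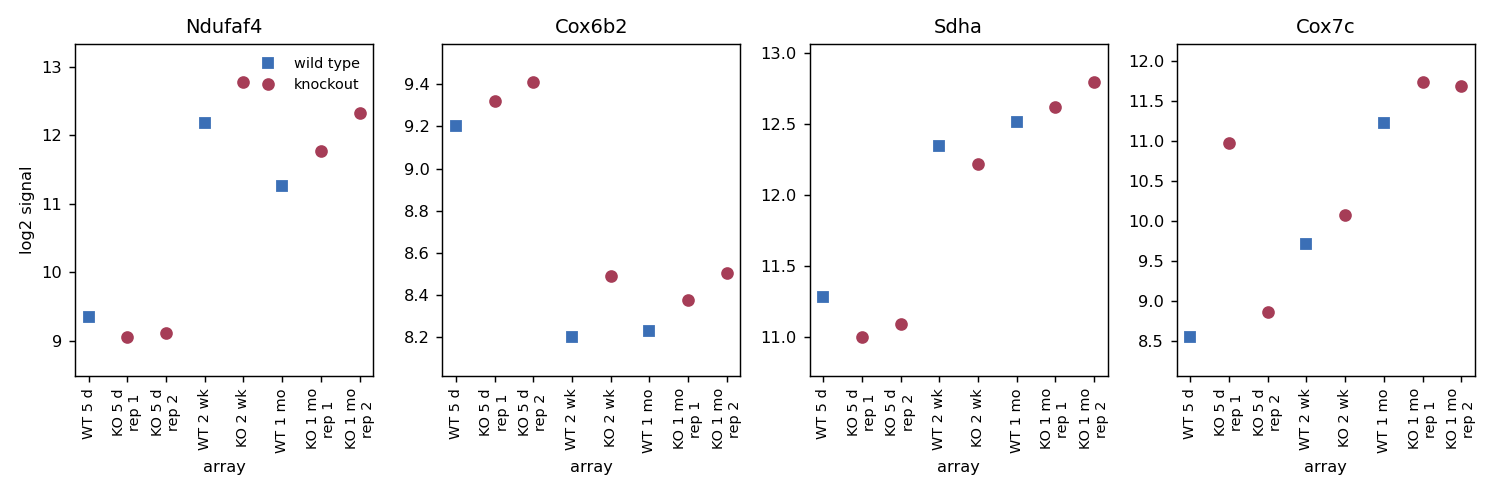
Log2 signal on each of the 8 arrays for the assembly factor Ndufaf4, the falling subunit Cox6b2, the complex II subunit Sdha and the complex IV subunit Cox7c; squares are wild type (WT), circles knockout (KO), and each panel has its own vertical range. In the Cox7c panel 5-day knockout replicate 1 (10.97) lies below the 1-month arrays (11.22 to 11.73) and above all other arrays.

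Complex V, the ATP synthase, had 15 of 15 subunits higher at 2 weeks and at 1 month, with medians of 0.80 and 0.90. Atp5h, the d subunit of the peripheral stalk, read 14.90, 14.85 and 14.82 at 5 days, 15.72 and 15.70 at 2 weeks and 15.58, 15.95 and 15.89 at 1 month and was higher at 1 month by 0.95 ± 0.12 (adjusted p = 0.00122). Atp5c1, the gamma subunit of the central rotor stalk, read 15.05, 15.05 and 15.10 at 5 days, 15.89 and 16.02 at 2 weeks and 15.69, 16.14 and 16.05 at 1 month and was higher by 0.90 ± 0.12 (adjusted p = 0.00138). The 3 genes Atp5g1, Atp5g2 and Atp5g3 encode the same c subunit of the rotor ring and differ in their import sequences. Atp5g3 read 15.51, 15.38 and 15.21 at 5 days, 15.96 and 16.04 at 2 weeks and 16.23, 16.41 and 16.54 at 1 month. Atp5g1 read 14.20, 13.80 and 13.90 at 5 days, 15.22 and 15.31 at 2 weeks and 14.70, 15.28 and 15.27 at 1 month. Atp5g2 read 15.46, 15.14 and 15.30 at 5 days, 15.83 and 15.84 at 2 weeks and 15.52, 15.80 and 15.79 at 1 month. All 3 genes were higher at 1 month (Atp5g3 by 1.03 ± 0.14, adjusted p = 0.00131), Atp5g3 reached its own highest values at 1 month, and Atp5g2 had the smallest difference of complex V at 1 month (0.41 ± 0.14, adjusted p = 0.0435). With quantile normalization 8 of the 15 subunits passed the test as higher at 1 month, against 21 of 36 in complex I, 2 of 4 in complex II, 4 of 8 in complex III and 10 of 12 in complex IV.

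Of the 10 genes that share only the start of a name, 7 were higher and 1 lower at 2 weeks, where 21.1% of all genes tested were higher and 21.5% lower. Ndufaf4, a complex I assembly factor, had the largest rise of all 88 tested genes of the name rule. It read 9.35, 9.05 and 9.11 at 5 days, 12.18 and 12.77 at 2 weeks, and 11.25, 11.77 and 12.32 at 1 month. The later arrays were all far above 5 days, and the difference was 3.36 ± 0.30 at 2 weeks (10.3-fold, adjusted p = 0.000847) and 2.61 ± 0.26 at 1 month. A further probe gave 3.23 at 2 weeks. The assembly factors Ndufaf1, Ndufaf3, Sdhaf1 and Sdhaf2 were higher at 2 weeks by 1.00, 1.14, 1.15 and 0.63, and Ndufaf2 by 0.34 (adjusted p = 0.0502). Atp5s (now Dmac2l) read 8.66, 8.95 and 8.88 at 5 days, 8.14 and 8.47 at 2 weeks and 8.04, 8.53 and 8.47 at 1 month and was lower at 2 weeks (-0.46 ± 0.12, adjusted p = 0.0202), and Cox7a2l, a supercomplex assembly factor, stood at 0.11 (adjusted p = 0.564). The 250 bases before the start of Ndufaf4, chr4:24897833-24898082 on the plus strand of GRCm38.p6, hold 1 NRF1 palindrome, in capitals.
Ndufaf4: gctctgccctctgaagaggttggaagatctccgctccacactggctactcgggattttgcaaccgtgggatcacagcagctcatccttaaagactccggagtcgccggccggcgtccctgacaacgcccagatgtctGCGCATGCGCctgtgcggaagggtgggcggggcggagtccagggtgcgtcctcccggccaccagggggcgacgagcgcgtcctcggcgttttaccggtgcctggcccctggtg

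Lists of other mitochondrial genes and of cell type markers are read against the shares over all genes tested at 1 month, 30.3% higher and 26.7% lower, or 28.2% and 29.7% with quantile normalization. At 1 month 17 of 23 genes of the citric acid cycle and pyruvate dehydrogenase were higher and 2 lower (median 0.82), led by Pdhx and Pdha1 of the pyruvate dehydrogenase complex and its kinase Pdk1 (1.53, 1.49 and 1.68). Of the electron carriers and coenzyme Q genes outside the name rule 7 of 9 were higher (median 0.74), among them cytochrome c, Cycs, at 1.87. Of 76 mitochondrial ribosomal protein genes 57 were higher and 2 lower (median 0.61), and of 24 further assembly factors 14 and 1 (median 0.50). With quantile normalization these counts were 12 and 6 for the citric acid cycle list, 6 and 1 for the electron carriers, 32 and 8 for the ribosomal list and 11 and 2 for the assembly factors.

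Of 17 genes of fatty acid oxidation 3 were higher and 7 lower at 1 month, with a median of 0.03, and -0.60 after quantile normalization, where 1 was higher and 9 lower. Cpt1a, which admits long-chain fatty acids to mitochondria, read 14.46, 14.23 and 14.39 at 5 days and 12.97, 12.73 and 12.85 at 1 month, a fall of 1.51 on the log2 scale (adjusted p = 0.000216). Bdh1, which makes the ketone body hydroxybutyrate, was lower by 1.47 and the lipid-sensing receptor Ppara by 1.04. The 3 higher genes were Cpt2 (0.92) and Slc25a20 (0.58), which with Cpt1a import fatty acids, and the acyl-CoA dehydrogenase Acadvl (0.33). Of 20 mitochondrial carriers and import genes 10 were higher and 2 lower (median 0.46), among the latter the uncoupling protein Ucp2 (-1.68), and 4 were higher and 7 lower after quantile normalization, where the median turned to -0.04. Of 19 regulators of mitochondrial biogenesis 7 were higher and 2 lower, and 5 and 4 with quantile normalization.

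Cell type markers moved with age as well. At 1 month 13 of 17 hepatocyte markers were higher and 1 lower, led by Tat, Ass1 and Cps1 (2.94, 2.61 and 2.26), with a median of 1.01. With quantile normalization 8 were higher and 1 lower, with a median of 0.45. By contrast 15 of 19 erythroid markers, 15 of 17 immune and Kupffer cell markers, 9 of 14 stellate and endothelial markers and 24 of 25 cell cycle genes were lower. The median level of the erythroid list was 9.72 to 10.40 at 5 days and 5.99 to 6.64 later, and that of the immune list 11.05 to 11.83 and 9.55 to 9.64. Their part in the rise of the oxidative phosphorylation genes was not tested.

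The muscle forms of complex IV behaved differently from each other. Cox6a2, the heart and skeletal muscle form of subunit 6a, read 10.81 in 5-day knockout replicate 1 and 7.05 and 6.83 in the other 5-day arrays, 5.36 and 6.86 at 2 weeks and 5.90, 6.26 and 6.33 at 1 month. Cox8b, the muscle form of subunit 8, read 10.49 in the same 5-day knockout, 4.89 in the 2-week knockout, and from 2.80 to 4.12 on the other 6 arrays, where it was not above background. One array was therefore high in both genes. That array also held the skeletal muscle markers Acta1 (12.27, against 3.79 to 4.84 elsewhere), Mb (8.86) and Ckm (8.004), the last not above background on any other array. The median over the skeletal muscle markers was 9.22 there and 4.06 to 5.08 on the other arrays. Neither gene passed an age or genotype test over all 8 arrays (limma, adjusted p of 0.108 and 0.502 for 1 month against 5 days). Without that array the difference of Cox6a2 at 1 month was -0.87 (adjusted p = 0.101), and without the 2-week knockout as well it passed the test at -0.80 (adjusted p = 0.0302). In both fits the second slide holds 1-month arrays only, so 1 month and slide cannot be told apart.

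Cox7a1, the muscle form of subunit 7a, was high in the liver after 5 days. It read 8.43 in the 5-day wild-type pool, 10.49 and 8.24 in the 5-day knockouts, 12.07 and 12.26 in the wild type and knockout at 2 weeks, 10.51 in the 1-month wild-type pool and 11.01 and 10.6995 in the 1-month knockouts. Both 2-week arrays were above all others, and the array of 5 days that reached the level of 1 month was the one with muscle markers. At 2 weeks Cox7a1 was higher than at 5 days by 3.20 ± 0.62 (9.20-fold, adjusted p = 0.00803), and by 3.83 without that array (adjusted p = 0.00238). Without the 2-week wild type the call ended (2.998, adjusted p = 0.0579), as it did without the 2-week knockout (3.45, adjusted p = 0.0501). At 1 month it was higher by 1.69 ± 0.55 (adjusted p = 0.0378), and by 2.38 without the array with muscle markers (adjusted p = 0.00111). In the latter fit 1 month and slide cannot be told apart. The call at 1 month over all 8 arrays ended with quantile normalization (1.58, adjusted p = 0.0582) and with no filter on low signal (adjusted p = 0.0555). It also ended with slide as a block (0.30, adjusted p = 0.362) and without each of the other 7 arrays in turn (adjusted p of 0.0589 to 0.129). On the second slide the only 5-day array is the one with muscle markers, and the 1-month knockouts were above it by 0.37. Across slides the wild-type pools differed by 2.08.

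Between 2 weeks and 1 month the difference of Cox7a1 was -1.51 ± 0.62 (adjusted p = 0.164), and without the 5-day array with muscle markers it passed the test at -1.45 (adjusted p = 0.0188). Without that array the second slide holds 1-month arrays only, so 1 month and slide cannot be told apart. On the 2-week wild-type array, where Cox7a1 read 12.07, Mb (2.07), Ckm (3.13) and the brown fat gene Ucp1 (1.92) were not above background. There 11 of 26 skeletal muscle markers were above background, against 10 in the 5-day and 11 in the 1-month wild-type pool. Tnnt1 read 7.60 and Tnni2 6.57 on that array. In the 5-day wild-type pool, where Cox7a1 read 8.43, they read 7.83 and 8.10. The 2-week knockout, where Cox7a1 read 12.26, had 15 of 26 skeletal muscle markers above background, among them Mb (5.67) but not Ckm (3.03). Its Tnnt1 read 6.83 and its Tnni2 7.01. The median over the skeletal muscle markers was 5.08 in the 2-week knockout and 4.33 in the 2-week wild type. Of 12 heart muscle markers 7 were above background on the 2-week wild type, 8 on the 2-week knockout and 5 to 10 on the other arrays. Single heart markers differed in direction. Tnnt2 was highest on the 2-week arrays, at 8.25 and 8.51 against 4.07 to 7.58 elsewhere. Myl4 was highest on the 5-day arrays, at 8.99, 8.94 and 7.84 against 6.73 and 7.78 at 2 weeks. Of 10 heart markers tested, 0 passed as higher and 0 as lower at 2 weeks against 5 days. Over all genes tested 21.1% passed as higher and 21.5% as lower. The part of muscle RNA in the level of Cox7a1 was not tested. The ubiquitous counterparts rose as the other subunits did. Cox7a2 read 14.41, 14.34 and 14.29 at 5 days, 15.17 and 15.24 at 2 weeks and 15.30, 15.48 and 15.47 at 1 month, Cox6a1 read 17.21, 16.99 and 17.19 at 5 days, 17.79 and 17.85 at 2 weeks and 17.85, 17.95 and 17.92 at 1 month, and Cox8a read 15.68, 15.21 and 15.37 at 5 days, 16.30 and 16.24 at 2 weeks and 16.21, 16.40 and 16.42 at 1 month. At 1 month Cox7a2 was higher by 1.07 ± 0.11 (adjusted p = 0.000475), Cox6a1 by 0.77 ± 0.11 (adjusted p = 0.00177) and Cox8a by 0.92 ± 0.15 (adjusted p = 0.00261). The 250 bases before the start of Cox7a1, chr7:30183921-30184170 on the plus strand of GRCm38.p6, held none of the NRF1, YY1, CCGGAAG or estrogen-related receptor letters and 2 copies of CCAAT on the opposite strand, as ATTGG in capitals.
Cox7a1: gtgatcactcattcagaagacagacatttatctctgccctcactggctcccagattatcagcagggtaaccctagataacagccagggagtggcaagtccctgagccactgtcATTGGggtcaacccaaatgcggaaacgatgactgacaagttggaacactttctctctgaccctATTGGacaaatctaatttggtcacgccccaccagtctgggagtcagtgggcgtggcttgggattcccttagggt

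**Figure D4:**
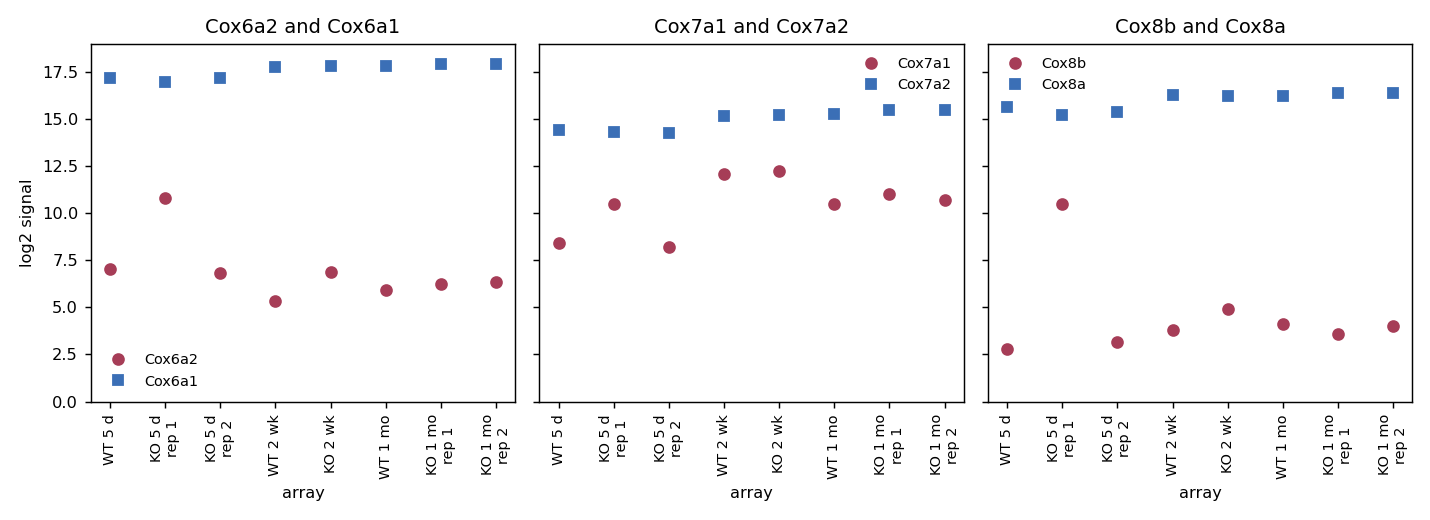
Log2 signal on each of the 8 arrays of the muscle forms Cox6a2, Cox7a1 and Cox8b (circles) and of the ubiquitous forms Cox6a1, Cox7a2 and Cox8a (squares). Cox6a2 and Cox8b are high in 5-day knockout replicate 1 (10.81 and 10.49), while Cox7a1 is highest in both 2-week arrays (12.07 and 12.26).

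Loss of Arid1a in hepatocytes changed no core subunit past the test. Over the 3 ages 0 of 75 passed (limma, 0 higher and 0 lower at an unadjusted p under 0.05, where 7.93% and 6.47% of all genes were), against 0.0459% of all genes higher and 0.0975% lower, and the median was 0.05. At 5 days 0 of 75 passed, and 0 of all genes (limma, with 0 core subunits higher and 1 lower at an unadjusted p under 0.05, where 4.61% and 5.55% of all genes were). At 1 month 0 passed, against 0.0344% of all genes higher and 0.0229% lower, with 7 core subunits higher and 0 lower at an unadjusted p under 0.05, where 8.81% and 6.18% of all genes were.

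Although no single gene passed, the subunits lay on different sides of the wild type at the 2 ages. The median of the core subunits relative to the wild type of the same age was -0.18 and -0.10 in the 5-day knockouts, 0.01 in the 2-week knockout, and 0.31 and 0.31 in the 1-month knockouts, while the medians over all genes were between -0.01 and 0.05. At 1 month 73 of 75 core subunits (97.3%) were higher in both knockouts than in the wild-type pool, against 44.1% of all genes. At 5 days 54 (72%) were lower in both, against 36.5%. Each age has 1 wild-type array, shared by both knockouts and by all genes, so an offset of that array moves them all together, and such an offset cannot be told apart from genotype. The median at 1 month was 0.32 over the fit, 0.21 with quantile normalization and 0.26 with median centring.

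**Figure D5:**
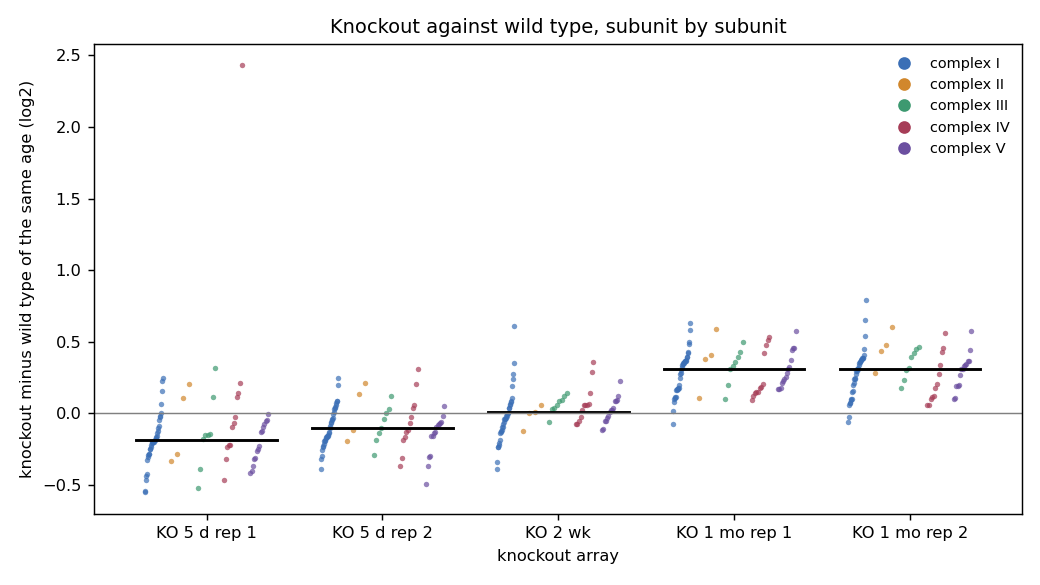
Each point is 1 core subunit gene in 1 knockout array, as its log2 signal minus that of the wild-type array of the same age, coloured by complex; the black bar is the median over the 75 genes. Medians are -0.18 and -0.10 at 5 days, 0.01 at 2 weeks and 0.31 in both 1-month knockouts.

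The members with the smallest p at 1 month were Ndufab1, the mitochondrial acyl carrier protein of complex I, Sdhb and Atp5g1. Ndufab1 read 13.51 in the 1-month wild-type pool and 14.14 and 14.16 in the knockouts, a difference of 0.64 ± 0.15 (limma, adjusted p = 0.186). Sdhb read 13.46 against 14.05 and 14.07 (0.59 ± 0.15, adjusted p = 0.210), and Atp5g1 14.70 against 15.28 and 15.27 (0.58 ± 0.15, adjusted p = 0.217). In each of the 3 genes both knockouts were above the wild-type pool, and none passed the adjusted threshold. At 5 days the smallest p was that of Atp5e, the epsilon subunit of ATP synthase, which read 15.43 in the wild-type pool and 15.01 and 14.94 in the knockouts (-0.46 ± 0.15, adjusted p = 0.460).

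The difference between the knockout effects at 1 month and at 5 days was also tested as an interaction. Its median over the core subunits was 0.41, against 0.05 over all genes, and 74 of 75 were above 0. It passed the test for 0 core subunits and for 0 of all genes (limma, 8 core subunits higher and 0 lower at an unadjusted p under 0.05, against 6.3% and 4.26% of all genes). The smallest adjusted p was that of Atp5g1 (0.93 ± 0.21, adjusted p = 0.325). In 52 core subunits (69.3%) both knockouts were below the wild type at 5 days and both above it at 1 month, against 13.2% of all genes, and in 0 the order was the opposite.

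The knockout arrays at both ages, the only age comparison with 2 arrays on each side, gave 72 core subunits higher and 1 lower at 1 month (background 23.7% and 22.9%), with a median of 1.04. The wild-type pools, on different slides, differed by a median of 0.65 between these ages, with 73 of 75 above 0. Between 2 weeks and 1 month the core median was -0.16 in the wild type and 0.15 in the knockout, both across slides.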

How the data were processed

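The authors deposited scanner output for 8 one-colour Agilent arrays (Cy3-labelled liver RNA from TRIzol extracts, per the labels' protocols), read with Feature Extraction 10.7.3.1 per the file headers, and a table of log2 values whose columns hold nearly the same sorted values. The deposited intensity used is the processed signal, already background-corrected per the file headers. Probe coordinates in the file headers are of build mm9.

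The log2 intensity minus each array's 75th percentile was used, with the mean percentile added back. Control spots and outlier flags were left out, and the probe with the highest mean stood for a gene. Genes well above background on at least 2 arrays were fitted with limma 3.58.1 in R 4.3.3 (figures with matplotlib 3.10.9 in Python 3.11.15), with genotype and age for age comparisons and 6 groups for genotype at an age, and Benjamini-Hochberg adjustment over 17436 genes. The 2-week genotype comparison, with 1 array on each side, has values only. The fits were tested on simulated data. The number of arrays limits the precision.

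Named genes were the muscle, tissue-restricted and counterpart forms, up to 3 genes per complex and direction of smallest p for 1 month against 5 days, up to 6 per direction for other comparisons, up to 3 per further list, and exceptions. Cox7c, Cox6b1 and the c subunit genes were added after their values were seen. The members and lists were chosen with earlier results of these data known. P-values measure the spread between these samples, which may be technical. Alternatives were other scalings, backgrounds, filters, probe rules, variance models, slide or replicate as a block, and leaving out arrays.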

Additional observations from a re-analysis of the deposited data

Results flagged for a closer look

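Medians of knockout minus wild type had opposite signs at 5 days and at 1 month for the core subunits and complexes I, III, IV and V. In these sets every knockout array of an age lay on one side of its wild-type array. In complex II the 5-day knockouts lay on both sides (-0.09 and 0.01). The knockout difference at 1 month minus that at 5 days had a median of 0.41 over the core subunits. It was 0.39 over complex I, 0.45 over complex III, 0.31 over complex IV and 0.46 over complex V. Among single genes it was 0.93 for Atp5g1, 0.80 for Ndufb5, 0.68 for Atp5sl, 0.67 for Atp5a1, 0.64 for Atp5e and 0.69 for Ndufa11. None of these genes passed the interaction test (limma, adjusted p of 0.325 to 0.443), and the medians were not tested. Each age rests on 1 wild-type array, and an offset of that array cannot be told apart from genotype.

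For Cox8b the difference was -4.35 (limma, adjusted p = 0.800), with 5-day knockout replicate 1, the array with muscle markers, at 10.49, and -0.67 without that array.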

How the results depend on the processing

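For 1 month against 5 days, quantile normalization and the deposited table both gave 45 core subunits higher and 2 lower, with medians of 0.36 and 0.36. Planned normexp gave 0 and 0 with a median of 0.0711. The median was 1.09 with median centring, 0.83 with normexp after replacing flagged local backgrounds (repaired normexp), 1.02 with slide as a block and 0.85 with 6 groups. Leaving out 1 array gave 67 to 72 higher and medians of 0.87 to 1.02. For 2 weeks against 5 days the first 2 gave 45 higher with medians of 0.44 and 0.44, planned normexp 0 and 0 with a median of -0.10, median centring a median of 1.06, and leaving out both doubted arrays 26 higher. Leaving out 1 array gave 49 (the 2-week knockout) to 70 higher and medians of 0.82 to 0.98.

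For 1 month against 2 weeks the median was -0.0897 with quantile normalization, -0.0938 with the deposited table, -0.0294 with median centring, 0.15 with planned normexp, -0.0005 with repaired normexp, 0.17 with slide as a block, -0.0012 with 6 groups and -0.0122 without both doubted arrays. Repaired normexp and a trended, robust variance each gave 1 higher. Leaving out 1 array gave 0 to 1 higher and medians of -0.0132 to 0.18.

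For the knockout over the 3 ages the median was -0.0276 with median centring, -0.42 with planned normexp, 0.12 without both doubted arrays and -0.07 to 0.18 without 1 array. At 5 days it was -0.0624, -0.23 and -0.0676 with quantile normalization, median centring and the deposited table, and at 1 month 0.21, 0.26 and 0.21. The interaction median was 0.24 with quantile normalization and 0.24 with the deposited table. At 2 weeks the median was 0.0866, -0.0656 and 0.0708 with these 3 scalings, -1.70 with planned normexp and -0.0032 with repaired normexp.

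For the knockouts of 1 month against 5 days, quantile normalization and the deposited table gave 36 higher and 2 lower with medians of 0.43 and 0.43, planned normexp 0 and 0 with 0.19, median centring a median of 1.21 and repaired normexp 0.98. Leaving out 1 array gave 53 to 72 higher and medians of 1.03 to 1.08. With the replicate number as a block 67 were higher and 1 lower, with a median of 1.04. The deviations of same-numbered arrays had a correlation of -0.0010 across genes. This rests on the difference between the replicates at each age. At 5 days the replicates differed in muscle markers, Xist and slide, so the correlation cannot show whether the numbers pair the samples.

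Single genes turned sign with the mean of all probes (Ndufv3 at 1 month, -0.15) and with planned normexp (Ndufa1 at 2 weeks -0.0541, Cox6a1 -0.0327 at 1 month and -0.35 at 2 weeks, Cox7a2 -0.10, Cox8a -0.14 and Cox7c -0.11 at 2 weeks). The cause of these changes was not tested. Repaired normexp and leaving out both doubted arrays were chosen after seeing the data. In every fit without 5-day knockout replicate 1, 1 month and slide cannot be told apart. Each genotype comparison at an age rests on 1 wild-type array.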

Other observations

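Slc25a4, the muscle and heart form of the mitochondrial ADP/ATP carrier, which exchanges the product of complex V, lies outside the name rule and was picked after its values were seen. It read 14.30 in the 5-day wild-type pool and 14.81 and 14.87 in the knockouts, 13.15 against 14.65 at 2 weeks, and 11.31 against 13.61 and 13.72 at 1 month. Every knockout array was above the wild-type array of its age. The difference at 1 month was 2.36 ± 0.16 (SE; limma, adjusted p = 0.0558), which did not pass the threshold. Slc25a5, the widely expressed form, read 14.49, 14.001 and 13.97 at 5 days and 15.45, 15.82 and 15.81 at 1 month.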
